A study of Mus musculus with 9 samples.

Results

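The genes described here are 10 genes of the major histocompatibility complex (MHC) class I pathway of antigen presentation, taken by their symbols from the 18275 genes of a hippocampal expression table. They are the heavy chains H2-D1, H2-K1 and H2-T23, the light chain B2m, the peptide transporter subunits Tap1 and Tap2, the loading factor Tapbp, the immunoproteasome subunits Psmb8 and Psmb9, and the transcriptional activator Nlrc5. All 10 symbols matched 1 gene ID each, and all 10 passed the minimum mean value of 10 that a gene needed to be tested. RNA was taken from the dissected hippocampus of adult mice, labelled C57BL/6N, and sequenced as 1 library per animal from 4 male Nestin;BrafKE/+ mice and 5 male Braf+/+ littermates. Nestin;BrafKE/+ mice carry 1 floxed knock-in Braf allele with the K499E change (human numbering), which makes the kinase more active, and a Nestin-Cre transgene that switches the allele on in neural stem cells. Neurons, astrocytes and oligodendrocytes descend from those cells, whereas microglia and blood vessel endothelium do not. Braf+/+ mice have no mutant allele, and the labels do not say whether they carry Nestin-Cre. The comparison asks what the mutant allele does to hippocampal transcripts.

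A class I molecule is a heavy chain bound to beta-2 microglobulin, and it carries a short peptide to the cell surface, where T cells and natural killer cells read it. Proteasomes cut the peptides from proteins of the cell, the TAP transporter moves them into the endoplasmic reticulum, and tapasin (Tapbp) helps to fit them into the groove of the heavy chain. Interferons raise the expression of these genes, and they do so in part through Nlrc5, which acts at a shared promoter module. In the brain, class I genes are expressed at a low level by neurons, glia and vessel cells, and they are known for a role in synapse remodelling beside their role in immunity.

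The 8 members other than B2m and Nlrc5 lie on chromosome 17 in the mouse MHC, and all coordinates are those of Gencode vM39 on GRCm39. H2-D1 (ENSMUSG00000073411) spans 35481691 to 35486475 on the plus strand, H2-K1 (ENSMUSG00000061232) spans 34214987 to 34219321 on the minus strand, and H2-T23 (ENSMUSG00000067212) spans 36340229 to 36345571 on the minus strand. Tapbp (ENSMUSG00000024308, 34134873 to 34148267) lies on the plus strand. Psmb9 (ENSMUSG00000096727, 34400960 to 34406738, minus strand), Tap1 (ENSMUSG00000037321, 34405996 to 34416199), Psmb8 (ENSMUSG00000024338, 34416690 to 34420428) and Tap2 (ENSMUSG00000024339, 34422501 to 34435829) follow each other, the last 3 on the plus strand. Psmb9 and Tap1 overlap at their 5′ ends on opposite strands, and whether strand was used in counting is not given in the sources used here, so reads of the overlap cannot be told apart with certainty. B2m (ENSMUSG00000060802) spans 121977957 to 121983594 on chromosome 2, and Nlrc5 (ENSMUSG00000074151) spans 95160984 to 95253900 on chromosome 8, both on the plus strand.

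Promoters of the 3 heavy chain genes and B2m, the members whose difference had an unadjusted p under 0.05, are shown so that the regulatory motifs they share can be seen. Each is the 250 bases before the gene's start in RefSeq, written 5′ to 3′ on the gene's strand. They were found on GRCm39 at chr17:35481820-35482069 for H2-D1, chr17:34219322-34219571 for H2-K1, chr2:121977918-121978167 for B2m and chr17:36343594-36343843 for H2-T23. Capitals mark an NF-kB consensus (given by name), the interferon response motif GAANNGAAA, which may have 1 more A in its first GAA (the long form), the X2 core TGACG and the CCAAT box, each searched on both strands.
H2-D1: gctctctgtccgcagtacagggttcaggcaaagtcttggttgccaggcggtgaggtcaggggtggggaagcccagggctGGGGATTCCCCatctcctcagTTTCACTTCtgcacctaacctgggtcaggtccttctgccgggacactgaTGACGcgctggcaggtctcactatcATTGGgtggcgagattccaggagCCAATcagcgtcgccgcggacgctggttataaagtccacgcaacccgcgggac
H2-K1: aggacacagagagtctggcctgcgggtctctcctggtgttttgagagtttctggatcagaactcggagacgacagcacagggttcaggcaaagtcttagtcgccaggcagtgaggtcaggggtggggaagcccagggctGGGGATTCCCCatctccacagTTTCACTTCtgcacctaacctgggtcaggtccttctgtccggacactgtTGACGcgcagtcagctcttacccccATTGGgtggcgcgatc
B2m: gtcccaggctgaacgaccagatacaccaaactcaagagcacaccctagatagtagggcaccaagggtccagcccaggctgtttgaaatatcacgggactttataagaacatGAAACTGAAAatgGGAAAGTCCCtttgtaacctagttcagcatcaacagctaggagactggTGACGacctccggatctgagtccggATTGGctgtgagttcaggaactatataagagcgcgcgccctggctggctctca
H2-T23: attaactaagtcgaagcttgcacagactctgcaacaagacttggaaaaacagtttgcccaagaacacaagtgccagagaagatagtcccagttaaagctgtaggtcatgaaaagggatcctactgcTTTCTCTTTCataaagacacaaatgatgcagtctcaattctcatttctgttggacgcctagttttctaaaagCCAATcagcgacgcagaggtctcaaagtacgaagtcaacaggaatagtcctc

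H2-D1, H2-K1 and B2m held the X2 core and a reversed CCAAT box (ATTGG) with 20 bases between them, and each also held an NF-kB consensus and an interferon response motif. Over all 32536 RefSeq windows of this length, that pair was found in 30 (0.0922%), and the pair with either form of the interferon motif in 6 (0.0184%). The windows of H2-D1, H2-K1 and B2m are counted in both numbers. H2-T23 held the long interferon motif and a CCAAT box, but not the pair. Of the 8 members with a window (Tap2 and Nlrc5 had none), 3 held the NF-kB consensus, found in 7.28% of all windows, 4 held either form of the interferon motif (8.85%), 5 the X2 core (17.85%) and 7 the CCAAT box (33.81%). The windows of Tap1 and Psmb9 overlap on opposite strands. Their X2 core and their CCAAT box are the same bases, counted once for each gene, so the 8 windows are not separate sequences. The windows of H2-D1 and H2-K1 were identical at 167 of 190 aligned bases (87.9%). In both of them 2 matches to the NF-kB consensus overlap each other and read on either strand, and no other motifs overlap in the 4 windows shown. Gencode has transcripts of H2-D1, B2m and H2-T23 that start within or before these windows. The motifs were chosen after the sequences had been seen, and the only spacing searched was the 20 bases found in these 3 genes. A match describes letters and not a bound site. Of the 26 gene symbols whose window holds the pair, 18 that are not members were tested for expression, with 8 at a higher level in the mutants, and 0 had a limma adjusted p under 0.05 (3 had an unadjusted p under 0.05, 1 higher and 2 lower).

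The deposited table held a normalised signal for each gene and library, and the library totals ran from 19551312 to 20091532. The number of reads sequenced is unknown, because the values had been adjusted for batches before they were deposited. Names of the libraries fall into 3 series, called A (mutant replicate 1 with control replicates 1, 2 and 3), B (mutant replicates 2 and 3 with control replicate 4) and C (mutant replicate 4 with control replicate 5), and the series was a term in the fit unless another is named. Braf itself, in which the mutant allele lies, had a mean signal of 2264 ± 144 (SD, n = 4) in the mutants against 2786 ± 153 (SD, n = 5) in the controls, a decrease with a log2 fold change of -0.30 (limma adjusted p = 0.0379, SE 0.07). An adjusted p under 0.05 was reached by 466 of the 16196 genes (2.88%). The middle 50% of all log2 fold changes lay between -0.12 and 0.12, with a median of 0.00033.

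All 10 class I genes had a higher fitted level in Nestin;BrafKE/+ than in Braf+/+, where 50.1% of all genes tested did. None of the 10 had a limma adjusted p under 0.05, and 4 (H2-D1, H2-K1, H2-T23 and B2m) had an unadjusted p under 0.05 with a higher level, where 8.86% of all genes tested did. The median of the 10 log2 fold changes was 0.20, and 15.2% of all genes tested had a fold change above it. The genotypes were without overlap for 3 of the 10 (H2-D1, H2-T23 and Tap2), against 7.62% of all genes that were higher without overlap. In all 3 series at once, 5 of the 10 were higher in Nestin;BrafKE/+, against 18.3% of all genes tested. H2-D1 was named by the study from these same libraries, so its direction here is not independent evidence, and these counts are descriptions. In whole tissue, more cells of a type and more RNA per cell cannot be told apart.

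**Figure D1:**
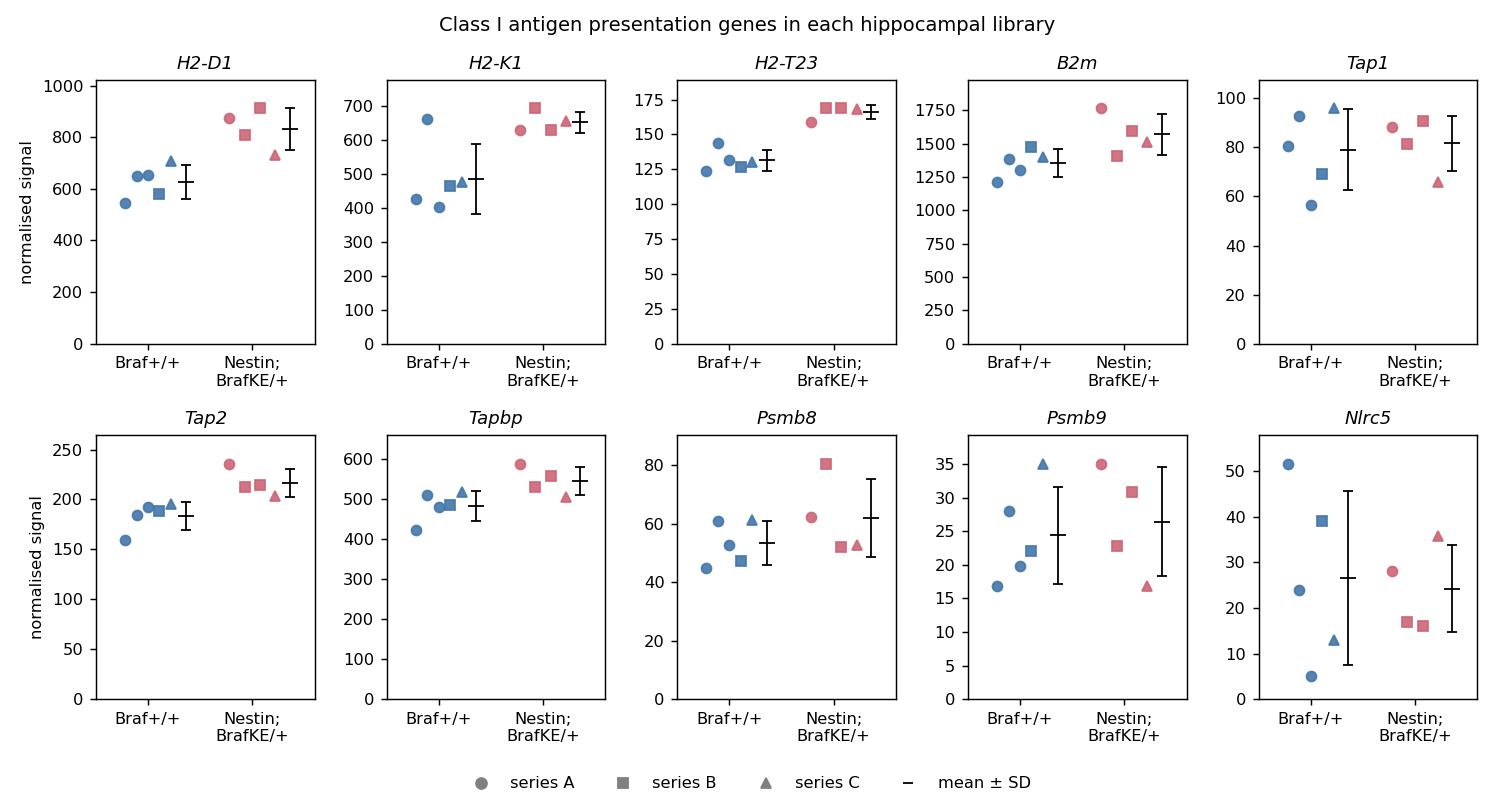
Normalised signal (y axis, from 0) of the 10 class I genes in the 5 Braf+/+ and 4 Nestin;BrafKE/+ libraries. Each point is 1 library, its shape gives the series, and the bar is the mean ± SD. H2-D1, H2-T23 and Tap2 have all 4 mutant libraries above all 5 controls, and the groups overlap for the other 7.

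H2-D1 and H2-K1 encode the classical heavy chains that present peptides to CD8 T cells. In Nestin;BrafKE/+ replicates 1 to 4 the signal of H2-D1 was 874, 808, 913 and 730, and in Braf+/+ replicates 1 to 5 it was 543, 649, 653, 580 and 709. Every mutant library lay above every control, with the narrowest gap between the 2 libraries of series C (730 and 709). The means were 831 ± 80.6 (SD, n = 4) and 627 ± 65.4 (SD, n = 5), and the level was 32.7% higher in Nestin;BrafKE/+ (95% interval 13.2 to 55.5; log2 fold change 0.41, SE 0.10, limma adjusted p = 0.0637). The log2 difference within series A, B and C was 0.51, 0.56 and 0.04. Leaving out either library of series C, which removes that series from the comparison, gave a log2 fold change of 0.54 and an adjusted p of 0.0261 or 0.0264, in fits that called 2.28% and 2.27% of all genes tested. Without any other library it was 0.32 to 0.42, with an adjusted p from 0.0852 to 0.302. The weakest was without Braf+/+ replicate 4 (0.32, 0.302), which removes series B from the comparison. Next was the fit without Nestin;BrafKE/+ replicate 1 (0.34, 0.272), which removes series A. 

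H2-K1 had the highest log2 fold change of the 10. Its signal was 629, 695, 629 and 656 in Nestin;BrafKE/+ replicates 1 to 4 and 426, 663, 402, 465 and 476 in Braf+/+ replicates 1 to 5. The mutant libraries lay close together, and Braf+/+ replicate 2 was the single control that reached their range. The means were 652 ± 31.3 (SD, n = 4) and 487 ± 103 (SD, n = 5), and the level was 36.1% higher in Nestin;BrafKE/+ (95% interval 9.79 to 68.6; log2 fold change 0.44, SE 0.14, adjusted p = 0.126 in limma). The 3 series gave similar log2 differences of 0.38, 0.51 and 0.46. When Braf+/+ replicate 2 was left out, H2-K1 had a log2 fold change of 0.53 and an adjusted p of 0.0110, in a fit that called 1.94% of all genes tested. Leaving out any other library gave 0.40 to 0.49, with an adjusted p from 0.159 to 0.369. That library also had the highest level of the choroid plexus, meninges, endothelium and mural marker lists, and its signals of the class II genes H2-Aa (52) and Cd74 (115) were the highest of all 9 libraries. The part of those tissues in its H2-K1 level was not tested.

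H2-T23 encodes Qa-1, a nonclassical heavy chain that is read by an inhibitory receptor of natural killer cells. Its signal was 159, 169, 169 and 168 in the mutants and 124, 144, 132, 127 and 130 in the controls, in order of replicate number. The groups did not overlap, and each varied little, with a coefficient of variation of 2.96% in Nestin;BrafKE/+ and 5.86% in Braf+/+. The level was 26.2% higher in Nestin;BrafKE/+ (95% interval 6.05 to 50.1; log2 fold change 0.34, SE 0.11, limma adjusted p = 0.150). Series A, B and C gave log2 differences of 0.25, 0.41 and 0.36. Without the series term H2-D1 (adjusted p = 0.0106), H2-K1 (0.0316) and H2-T23 (0.0153) all passed the threshold, as did 2260 genes in all (14.0% of those tested), at fold changes that differed by less than 0.01 on the log2 scale from those above. The values had been adjusted for unnamed batches before deposit. A fit without the term makes no allowance for that, so its p-values may be too low.

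Heavy chain transcripts share sequence with related genes, so their reads can be hard to assign. Of all 31-base stretches of the canonical transcript, 28.5% of those of H2-D1 and 23.5% of those of H2-K1 also occur in transcripts of other genes, 12.8% and 16.9% in transcripts of each other. For H2-T23 the share was 49.2%, of which the largest part (25.3%) lies in the pseudogene H2-T11-ps. The deposited signal of a heavy chain may thus hold reads of another. B2m, Psmb8, Psmb9 and Nlrc5 shared none, and Tap1, Tap2 and Tapbp shared between 1.4% and 4.3%. The log2 ratio of H2-D1 to H2-K1 within a library was 0.34 ± 0.19 (SD, n = 4) in the mutants and 0.38 ± 0.28 (SD, n = 5) in the controls, a difference of -0.036 (two-sided exact permutation p = 0.833 over the 24 splits within series, 0.958 when adjusted over the 4 ratios tested).

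B2m, the light chain that every classical heavy chain needs to reach the cell surface, was the most abundant of the 10. Its signal was 1768, 1405, 1595 and 1515 in Nestin;BrafKE/+ replicates 1 to 4 and 1209, 1385, 1302, 1478 and 1397 in Braf+/+ replicates 1 to 5. Nestin;BrafKE/+ replicate 1 was the highest and Braf+/+ replicate 1 the lowest, and Nestin;BrafKE/+ replicate 2 lay within the range of the controls. The means were 1571 ± 153 (SD, n = 4) and 1354 ± 102 (SD, n = 5), with a level 15.8% higher in Nestin;BrafKE/+ (95% interval 1.45 to 32.1; log2 fold change 0.21, SE 0.09, adjusted p = 0.222 in limma). Series A gave a log2 difference of 0.45, B of 0.02 and C of 0.12. Without Nestin;BrafKE/+ replicate 1, the only mutant of series A, the fitted log2 fold change was 0.06 (limma adjusted p = 0.782). That omission removes series A from the comparison and leaves series B and C.

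**Figure D2:**
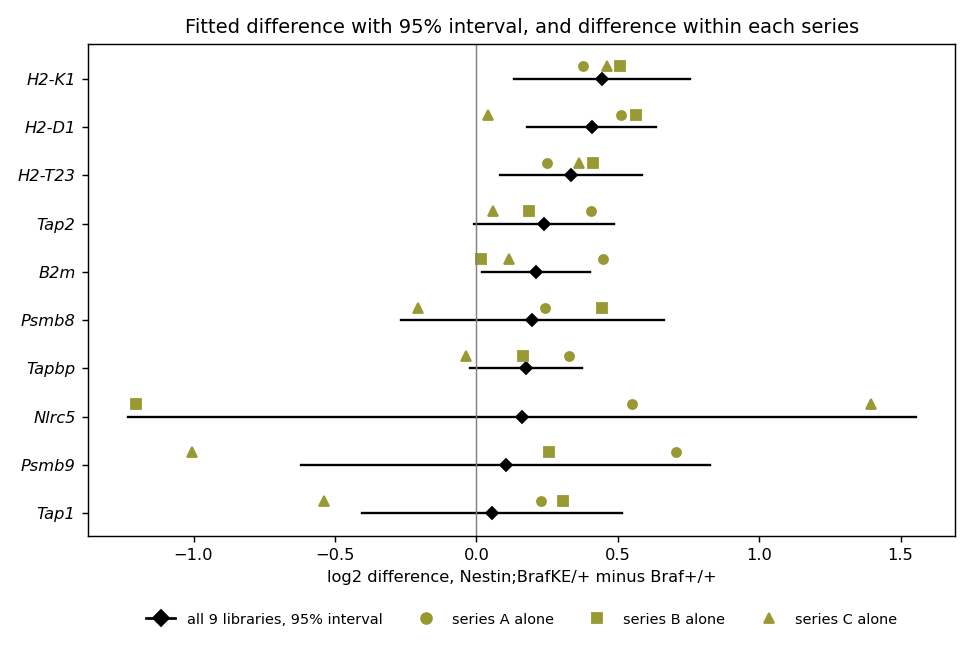
Log2 difference between Nestin;BrafKE/+ and Braf+/+ (x axis) for each class I gene. Diamonds and lines are the fitted difference over 9 libraries with its 95% interval, and the symbols above each line are the differences within series A, B and C, which have no error of their own. The intervals of H2-K1, H2-D1, H2-T23 and B2m lie above 0, before adjustment for the number of genes tested, and those of the other 6 include 0.

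Tap1 and Tap2 form the transporter that carries peptides into the endoplasmic reticulum. Tap2 had a signal of 236, 213, 215 and 203 in the mutants and 159, 184, 192, 188 and 195 in the controls. All mutant libraries lay above all controls, with 203 and 195 the nearest values. Its level was 18.0% higher in Nestin;BrafKE/+, with a 95% interval from -0.67 to 40.2% (log2 fold change 0.24, SE 0.11, limma adjusted p = 0.292). When mutant replicate 1 was left out it was 0.13 (adjusted p = 0.692). Tap1 had 88.3, 81.5, 90.9 and 65.8 in the mutants and 80.5, 93, 56.7, 69.3 and 96.1 in the controls, and here the groups overlapped over nearly their whole range. The fitted log2 fold change of Tap1 was 0.06 (SE 0.21, adjusted p = 0.919 in limma), with a 95% interval from -0.40 to 0.52. Its sign turned negative without Nestin;BrafKE/+ replicate 1, Braf+/+ replicate 3 or Braf+/+ replicate 4.

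Tapbp, or tapasin, bridges the transporter and the empty heavy chain. Its signal was 589, 530, 558 and 506 in Nestin;BrafKE/+ replicates 1 to 4 and 423, 510, 480, 485 and 519 in Braf+/+ replicates 1 to 5. Mutant replicates 1, 2 and 3 exceeded all controls, and replicate 4 lay within the controls' range. The level was 13% higher in Nestin;BrafKE/+ (95% interval -1.53 to 29.6; log2 fold change 0.18, SE 0.09, limma adjusted p = 0.331). Without Nestin;BrafKE/+ replicate 1 the log2 fold change was 0.08 (adjusted p = 0.773). The zinc finger gene Zbtb22 overlaps Tapbp on the same strand, so some of its reads cannot be assigned with certainty.

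Psmb8 and Psmb9 replace constitutive catalytic subunits of the proteasome and so alter which peptides it cuts. Psmb8 had a signal of 62.2, 80.5, 51.9 and 52.8 in the mutants and 44.7, 61, 52.8, 47.2 and 61.1 in the controls, a log2 fold change of 0.20 with a 95% interval from -0.27 to 0.66 (limma adjusted p = 0.663). Psmb9 had 35.1, 22.8, 30.9 and 16.9 in the mutants and 16.9, 28, 19.9, 22.1 and 35 in the controls, a log2 fold change of 0.10 with a 95% interval from -0.62 to 0.83 (adjusted p = 0.903). For Psmb8, 2 of the 4 mutants lay above all controls and the other 2 lay within their range, and for Psmb9 the groups overlapped over nearly their whole range. Leaving out 1 library moved the log2 fold change of Psmb8 to between 0.06 (without Braf+/+ replicate 4) and 0.34 (without either library of series C), with 0.08 without Nestin;BrafKE/+ replicate 2, and the adjusted p ran from 0.496 to 0.945. Nlrc5, the activator of class I promoters, had the lowest level per kilobase and the most variable signal, with 28.1, 16.9, 16 and 35.9 in the mutants and 51.7, 24, 4.98, 39.2 and 13 in the controls. Its mean was 24.2 ± 9.54 (SD, n = 4) in the mutants and 26.6 ± 19.0 (SD, n = 5) in the controls, so the plain means had the opposite order to the fitted log2 levels. Its coefficient of variation was 71.5% among controls, and its log2 fold change of 0.16 had a 95% interval from -1.23 to 1.55 (adjusted p = 0.925). With this spread, a difference of the size seen for the heavy chains was not detectable in Nlrc5 or Psmb9. The intervals of Tap1 (SE 0.21) and Psmb8 (SE 0.21) also reached above the log2 fold changes of the heavy chains, so such a difference is not excluded for them.

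Libraries did not share the differences evenly over the 10 genes. Nestin;BrafKE/+ replicate 1 had the highest value of all 9 libraries for 4 of the 10 genes, replicate 2 for 3 and replicate 3 for 1, and replicate 4 for 0. Braf+/+ replicate 1 had the lowest value for 7 and replicate 3 for the other 3. Within series A all 10 genes were higher in the mutant, within B 9 were, and within C 6 were. The mean log2 level of the 10 genes, taken for each gene from its mean over the libraries, ran from 0.05 to 0.26 in Nestin;BrafKE/+ and from -0.37 to 0.07 in Braf+/+, with 3 of the 4 mutants above all controls. Series C, with 1 library of each genotype, gave the smallest difference in this level (0.07), against differences of 0.40 and 0.17 for A and B.

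Levels were compared between genes per kilobase of the canonical transcript. In Braf+/+ the level per kilobase was 1247 ± 94.3 for B2m, 301 ± 63.7 for H2-K1, 296 ± 30.9 for H2-D1, 162 ± 12.6 for Tapbp and 89.3 ± 5.23 for H2-T23 (SD, n = 5). It was 46.2 ± 3.63 for Tap2, 31.3 ± 4.46 for Psmb8, 25.5 ± 5.29 for Tap1, 18.0 ± 5.33 for Psmb9 and 3.51 ± 2.51 for Nlrc5. Among neighbours in this order the libraries overlapped for H2-K1 and H2-D1, for Psmb8 and Tap1, and for Tap1 and Psmb9, and did not overlap for the other pairs. The order was the same in Nestin;BrafKE/+, where Psmb8 and Tap1 did not overlap. The mean level of the light chain per kilobase was above the sum of the 3 heavy chains in both groups.

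The use of immunoproteasome subunits was compared with their constitutive counterparts by the log2 ratio within each library, in which library scaling cancels. Psmb8 stood at 3.81% of Psmb5 in Nestin;BrafKE/+ and 3.50% in Braf+/+, and the log2 ratios were -4.71 ± 0.26 (SD, n = 4) and -4.84 ± 0.21 (SD, n = 5). Psmb9 stood at 2.04% and 1.99% of Psmb6. Psmb10, the remaining immunoproteasome subunit, stood at 16.8% and 17.4% of Psmb7. None of these 3 ratios differed beyond the spread between libraries, with two-sided exact permutation p-values of 0.5, 0.958 and 0.708 over the 24 splits within series, where the smallest p possible is 0.0417. Adjusted over the 4 ratios tested each was 0.958. 

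**Figure D3:**
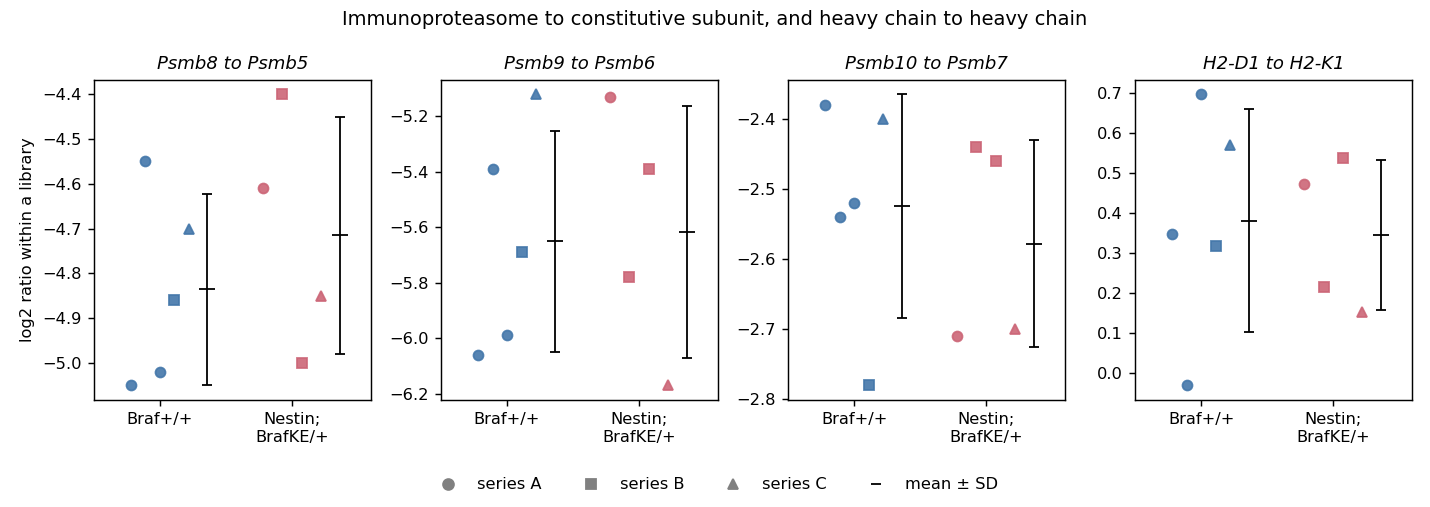
Log2 ratio of 2 genes within a library (y axis, a separate range in each panel) for 3 pairs of immunoproteasome and constitutive subunits and for H2-D1 to H2-K1. Points are libraries and bars are the mean ± SD of 4 Nestin;BrafKE/+ or 5 Braf+/+ libraries. The groups overlap in all 4 panels.

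Other class I heavy chains and class I-like genes were listed beside the members, and 11 of the 14 in the table passed the minimum for a test. Of these, 9 were higher in Nestin;BrafKE/+ and 2 lower, where 50.1% of all genes tested were higher. At an unadjusted p under 0.05, 3 were higher, where 8.86% of all genes tested were, and 0 had an adjusted p under 0.05 in limma. Their median was 0.21 on the log2 scale. H2-Q7, a Qa-2 heavy chain, had 20.1, 28.8, 14 and 26.9 in the mutants and 9.94, 13, 12.9, 13.1 and 9.01 in the controls (log2 fold change 0.87, SE 0.33, adjusted p = 0.191). The other 2 of the 3 were H2-Q4 (0.34, SE 0.14) and the neonatal Fc receptor gene Fcgrt (0.31, SE 0.10), with adjusted p of 0.229 and 0.126. All mutants exceeded all controls for these 3 and for H2-Q6, against 7.62% of all genes tested that were higher without overlap. Hfe, a class I-like regulator of iron uptake, had the lowest log2 fold change (-0.17, SE 0.23).

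Among 13 genes that supply, trim or load peptides, 8 were lower and 5 higher in Nestin;BrafKE/+, with a median of -0.12 on the log2 scale. The 5 with an unadjusted p under 0.05 were all lower, where 9.61% of all genes tested were lower at that p, and 0 had an adjusted p under 0.05 in limma. Hspa5, the endoplasmic reticulum chaperone BiP, had 4422, 4584, 4147 and 3675 in the mutants and 5190, 4944, 6092, 5077 and 6264 in the controls, without overlap (log2 fold change -0.39, SE 0.10, adjusted p = 0.0598). The others were the thiol oxidoreductase Pdia3 (-0.18) and the peptidases Tpp2 (-0.20), Lnpep (-0.16) and Npepps (-0.12), with adjusted p from 0.150 to 0.218. Psme1, a subunit of the proteasome activator that interferon induces, had the highest log2 fold change (0.15, SE 0.11, adjusted p = 0.5).

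Constitutive proteasome subunits and activators moved little, and none of the 16 had an unadjusted p under 0.05. Their log2 fold changes ran from -0.07 for Psma1 to 0.11 for Psmb2, with a median of 0.07. Of 21 regulators of class I genes, 14 were higher and 7 lower, and 1 had an adjusted p under 0.05. That gene was Creb1, a factor that binds the X2 element. It had 984, 924, 973 and 869 in the mutants and 1153, 1277, 1194, 1199 and 1324 in the controls, without overlap, and its fall was -0.39 on the log2 scale (limma adjusted p = 0.0176, SE 0.07). The call was lost without Nestin;BrafKE/+ replicate 1 (limma adjusted p = 0.0676) or 4 (0.0523), and without Braf+/+ replicate 4 (0.0746) or 5 (0.0548). Each of these omissions removes a whole series from the comparison. Leaving out any other library kept the call, with an adjusted p from 0.0249 to 0.0445. Irf1, which binds interferon response elements, had a log2 fold change of 0.29 (SE 0.13), and Rfx5, which binds the X1 element beside X2, had 0.27 (SE 0.11), with adjusted p of 0.263 and 0.206. Nfyb, a subunit of the factor that binds CCAAT boxes, had -0.19 (SE 0.08, adjusted p = 0.263). Irf8, a factor of microglia, had the highest value of the list (0.31, SE 0.17, adjusted p = 0.354).

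Interferon-stimulated genes were listed because they share inducers with the class I genes. Of 23 tested, 20 were higher and 3 lower in Nestin;BrafKE/+, where 50.1% of all genes tested were higher. At an unadjusted p under 0.05, 3 were higher, where 8.86% of all genes tested were. An adjusted p under 0.05 in limma was reached by 0, and the median log2 fold change was 0.25. Ifit3, an antiviral protein, had 270, 235, 230 and 183 in the mutants and 111, 138, 157, 137 and 176 in the controls (log2 fold change 0.67, SE 0.17, adjusted p = 0.0635). The guanylate-binding protein gene Gbp3 had 141, 122, 142 and 125 in the mutants and 80.5, 90, 91.6, 89.4 and 94.1 in the controls (log2 fold change 0.56, SE 0.13, adjusted p = 0.0510). The groups did not overlap for these 2 of the 23, against 7.62% of all genes tested that were higher without overlap. The third was Oasl2 (0.56, SE 0.23, adjusted p = 0.229), with 0.27 when Braf+/+ replicate 4 was left out and 0.86 when either library of series C was, and Ifi44 had the lowest value (-0.37, SE 0.33). As for the class I genes, the list's level was nearest between genotypes in series C (difference -0.01), with 0.31 for A and 0.36 for B. Gbp3 passed the threshold with a minimum mean value of 50 (adjusted p = 0.0479), and Ifit3 passed when either library of series C was left out (0.0231 and 0.0234). Left-out libraries also weakened both genes, to an adjusted p of 0.315 for Ifit3 (log2 fold change 0.46) and 0.225 for Gbp3 (0.49) without Nestin;BrafKE/+ replicate 1.

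Class II genes present peptides to CD4 T cells. Of 10 tested, 8 were higher and 2 lower, 0 had an unadjusted p under 0.05, and the log2 fold changes ran from -0.35 (SE 0.33) for H2-Ab1 to 0.28 (SE 0.60) for their activator Ciita. Of 13 receptors of class I and lymphocyte genes, 3 were matched in the table, and the other 10, Cd8a and the Cd3 genes among them, were not analysed here. Cd4 and Lilrb4a were below the minimum mean, and the leukocyte gene Ptprc had 69.9 ± 9.10 (SD, n = 4) in the mutants and 71.1 ± 11.8 (SD, n = 5) in the controls (log2 fold change -0.02, SE 0.19).

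**Figure D4:**
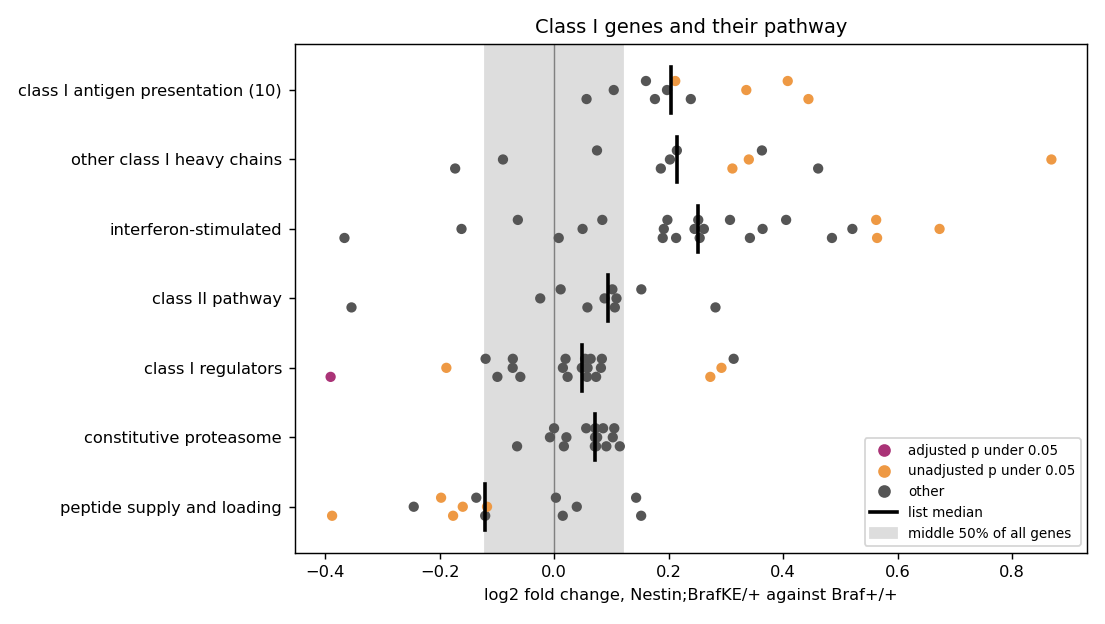
Log2 fold change (x axis) of every tested gene of the class I genes and 6 related lists. Each point is a gene, the black bars are list medians, and the grey band holds the middle 50% of all genes tested. The class I genes, the other heavy chains and the interferon-stimulated genes have medians between 0.20 and 0.25, the peptide supply list has -0.12, and Creb1 is the 1 gene with an adjusted p under 0.05.

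Class I genes are expressed by several cell types of the hippocampus, so the markers of those cells are given beside them. Of 12 microglia markers 10 were higher in Nestin;BrafKE/+ and 0 had an adjusted p under 0.05. At an unadjusted p under 0.05, 5 were higher, where 8.86% of all genes tested were. Their summed signal was 8853 to 9749 in the mutants and 7822 to 8783 in the controls, and their mean log2 level differed by 0.23 within series A, 0.16 within B and -0.01 within C. P2ry12 and Tmem119, which mark resident microglia, had log2 fold changes of -0.04 (SE 0.06) and 0.06 (SE 0.10). The 5 at an unadjusted p under 0.05 were Cx3cr1 (0.22), Csf1r (0.18), Fcrls (0.36) and the complement genes C1qb (0.28) and C1qc (0.31), with adjusted p from 0.0801 to 0.203, and the groups did not overlap for the first 3. Of the 12 markers, 4 were higher without overlap, against 7.62% of all genes tested. Border macrophage markers were low but higher in 6 of 6 tested, with a summed signal of 206 to 301 in the mutants and 165 to 243 in the controls, and Mrc1 and Cd163 had log2 fold changes of 0.32 (SE 0.22) and 0.34 (SE 0.32). Endothelial markers were higher in 8 of 12 with a median of 0.04, and Cldn5 (0.03, SE 0.09) and Pecam1 (0.17, SE 0.11) were among them. Their summed signal of 14416 to 14944 lay within the controls' range of 13782 to 16735. Mural cell markers were higher in 7 of 8, Pdgfrb (0.28, SE 0.08) and Rgs5 (0.18, SE 0.09) included, and summed to 4950 to 5464 and 4153 to 5462. At an unadjusted p under 0.05, 3 were higher and 1 lower. The lower one had the largest change of the list (-0.54, without overlap between the groups), where the highest value was 0.34.

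Astrocyte markers were higher in 10 of 12, and 3 passed the threshold in limma. These were Gfap (log2 fold change 0.68, adjusted p = 0.00576), Aldoc (0.35, adjusted p = 0.0106) and S100b (0.36, adjusted p = 0.0253), whereas Aqp4 (0.25, adjusted p = 0.0633) and Aldh1l1 (0.31, 0.0562) did not pass. The list summed to 119130 to 132813 in the mutants and 111125 to 124978 in the controls. Oligodendrocyte markers were higher in 10 of 10, with 4 past the threshold (Mobp, Mog, Mag and Cldn11, log2 fold changes 0.39 to 0.58). Their sums of 124965 to 134399 and 91023 to 110352 did not overlap, and Mbp had a log2 fold change of 0.32 with an adjusted p of 0.0577. Of 12 neuronal and hippocampal markers, 7 were higher and 5 lower. Wfs1 (0.61), Calb1 (0.43) and Fibcd1 (0.40) passed the threshold, Rbfox3 and Snap25 had -0.16 and -0.12, and the sums were 94842 to 96989 and 95895 to 103243. Averaged as log2 levels, which weights the genes equally, the list had the opposite order, with 0.02 to 0.10 in the mutants and -0.07 to -0.01 in the controls.

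Tissues that border the hippocampus varied between dissections. Choroid plexus markers were lower in 7 of 7 with a median of -1.59 and 0 past the threshold, and their summed signal ran from 1392 to 24275 in the mutants and from 4509 to 391968 in the controls. Ttr (-1.59, SE 1.52) and Folr1 (-1.83, SE 0.86) carried wide errors. Meninges markers were higher in 5 of 7, summed to 3640 to 4207 and 2267 to 7647, and held 1 gene past the threshold, Col1a1 (0.96, SE 0.18, adjusted p = 0.0214), beside Dcn (0.26, SE 0.23) and Lum (-0.34, SE 0.21). Blood markers were higher in 5 of 5, 4 with an unadjusted p under 0.05, where 8.86% of all genes tested were, and 0 adjusted. They summed to 3489 to 6184 and 3180 to 3579, with Hba-a1 at 0.57 (SE 0.16) and Hba-a2 at 0.41 (SE 0.15). No marker of any list had a value of 0, but no gene of the table did, so this does not show that a marker was detected. The part of these cells and tissues in the class I differences was not tested.

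**Figure D5:**
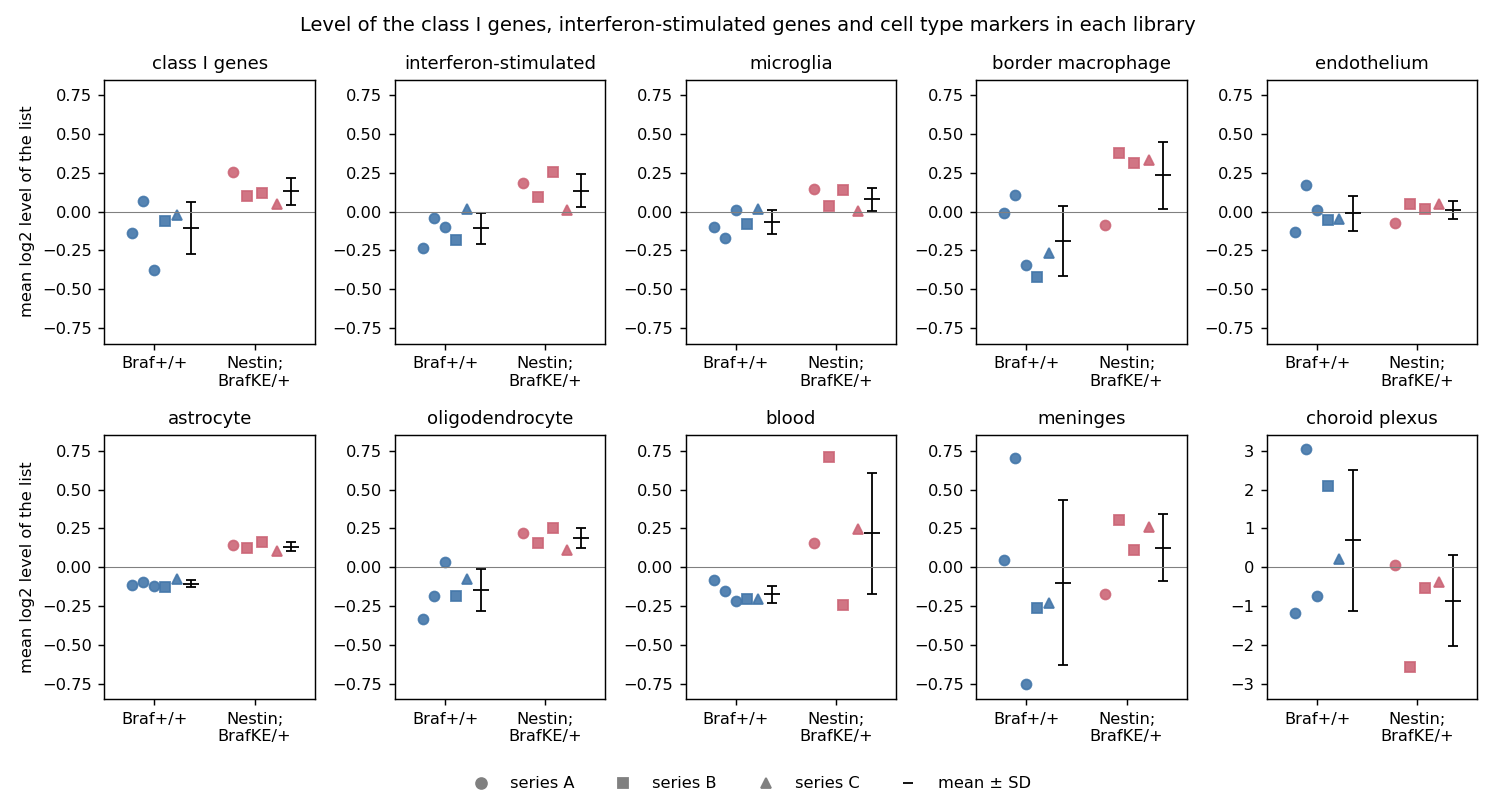
Mean log2 level in each library (y axis, each gene taken from its mean over 9 libraries) of the 10 class I genes, the interferon-stimulated genes and 8 cell type lists. Points are libraries, bars are the mean ± SD, and the choroid plexus panel has a wider axis. The class I level of 3 mutants lies above all controls, astrocyte and oligodendrocyte levels separate the groups, and Braf+/+ replicate 2 has the highest choroid plexus and meninges levels.

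The 8 members on chromosome 17 lie among 93 other tested genes within 2.21 megabases, from 34134873 to 36345571. Of these 93, 63 (67.7%) were higher in Nestin;BrafKE/+ and 15 (16.1%) were higher with an unadjusted p under 0.05, against 50.1% and 8.86% of all genes tested, and 1 was lower at that p. The 82 of them that belong to none of the lists gave 65.9% and 15.9%. The median log2 fold change of the 93 was 0.06. Prrt1, a protein of glutamate receptor complexes, was the 1 gene of the interval past the threshold. It had 2895, 2980, 3168 and 2821 in the mutants and 2553, 2360, 2202, 2188 and 2472 in the controls, a rise of 0.33 on the log2 scale (limma adjusted p = 0.0271, SE 0.07).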

How the data were processed

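RNA of 9 mouse hippocampi was sequenced from a stranded mRNA kit, each from 1 animal. Reads were trimmed by the authors using Trim Galore, then aligned with STAR to GRCm39 and quantified with Salmon against Gencode vM28. The authors corrected the values for unnamed batches and scaled them with DESeq2. What they deposited is a normalised signal per gene. In every library each value was a whole multiple (within 0.05) of 1 step, but no value was 0 and the whole numbers are not sequenced reads. The depth is therefore unknown, no count model was used, and precision rests on the spread between libraries.

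Groups came from the labels, and 0 per-sample columns were left out. A gene needed a mean of 10 or more over all libraries. The log2(value + 1) was modelled on genotype plus the series of names using limma 3.58.1 (R 4.3.3; lmFit, then eBayes with trend). Fold changes are on that scale, which understates the change of low genes. All p-values are two-sided. Benjamini-Hochberg adjustment covered the 16196 genes, at a threshold of 0.05. The level of a list averages, over its tested genes, the log2 value relative to the gene's own mean. Ratios were tested with exact permutation tests. On simulated data with 200 genes changed by 0.5 or 1 on the log2 scale, limma recovered 39% and 76.5%, and 2.5% and 4.97% of its calls were unchanged genes. The simulated noise was independent for each gene and library, with no series effect and no batch adjustment. These shares need not hold for the deposited values. Python 3.11.15 with pandas 2.3.3 handled the tables, and matplotlib 3.10.9 the plots.

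The members and lists were chosen with earlier results of these data known. Genes named are the 10 members, Braf, every gene past the threshold in a list or in the chromosome 17 interval, the highest and lowest fold change of each pathway list, and the first 2 genes of each cell type list, except 1 gene that is not reported here. Genes that make up a count of 5 or fewer were named after their values were seen. Of 18275 gene IDs, 18179 (99.47%) were found in Gencode vM39. Promoter windows came from RefSeq (table build GRCm38.p6) and were placed on GRCm39 by an exact and unique match.

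Alternative settings were a pseudocount of 0.5 or 8, a minimum mean of 50 or none, quantile normalisation, median-ratio scaling, no series term, 4 name prefixes as the term, the replicate number as a block, robust eBayes, array quality weights, and leaving out each library in turn. The raw reads were not analysed here.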

Additional observations from a re-analysis of the deposited data

Results flagged for a closer look

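A library was marked where its gap to the nearest other library of its group was large for the group's range (Dixon's 95% critical value). This held in 13 of the 218 groups of values examined over the class I genes, their pathway lists and the ratios (5.96%), and chance marks about 1 in 20.

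Of the 10 class I genes, 2 were marked. H2-K1 was 663 in Braf+/+ replicate 2 against 402 to 476 in the other controls, and H2-T23 was 159 in Nestin;BrafKE/+ replicate 1 against 168 to 169 in the other mutants, a gap of less than 10 in signal. Braf+/+ replicate 2 also stood apart for the class II gene H2-Aa, with 52 against 11.9 to 20.1.

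The other 10 belong to the pathway lists. In Braf+/+, H2-T24 was 108 in replicate 1 against 50.2 to 64.7, and H2-M5 was 38.8 in replicate 3 against 10.9 to 17.1. Braf+/+ replicate 3 was also highest for the proteasome genes Psmb7 (2120 against 1920 to 1960) and Psma4 (1660 against 1490 to 1540), and Braf+/+ replicate 5 for Ddx58 (140 against 112 to 115). In Nestin;BrafKE/+, Psmb7 was 2050 in replicate 1 against 2120 to 2130, and Ifnar2 was 381 in the same library against 306 to 314. Nestin;BrafKE/+ replicate 2 was highest for Psma7 (1560 against 1410) and H2-Ob (17.9 against 9.98 to 11), and replicate 3 for Ciita (17 against 7.98 to 8.94).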

How the results depend on the processing

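Over 20 alternatives, the 10 class I genes gave 198 fold changes, of which 190 kept their direction. Without 1 library, Tap1 ran from -0.078 to 0.27, Psmb9 from -0.28 to 0.50 and Nlrc5 from -0.28 to 0.89. The 8 that turned negative were for Tap1 without Nestin;BrafKE/+ replicate 1 (-0.055) and without Braf+/+ replicates 3 (-0.024) and 4 (-0.078), for Psmb9 without Nestin;BrafKE/+ replicate 1 (-0.28), and for Nlrc5 without Nestin;BrafKE/+ replicates 1 (-0.090) and 4 (-0.28) and Braf+/+ replicates 3 (-0.17) and 5 (-0.28). All 10 stayed higher in each alternative that kept all 9 libraries and tested them, and a minimum mean of 50 left 8 genes, all higher. Among these alternatives, the replicate block left Braf+/+ replicate 5 out of the genotype difference. The 4 name prefixes did so for Braf+/+ replicates 1 and 2, which share a prefix with no mutant. The number past the threshold was 0, and it was 3 without the series term (H2-D1 0.41, H2-K1 0.44, H2-T23 0.34). That fit makes no allowance for the batch adjustment made before deposit. Leaving out 1 library gave 0 to 1 class I genes past the threshold, 3 to 6 with an unadjusted p under 0.05 and 7 to 10 that were higher. Pathway list genes past the threshold numbered 1, became 11 without the series term and 2 with a minimum mean of 50, quantile normalisation or robust eBayes, and were 0 to 1 without 1 library. Over all genes tested the 466 became 2260 without the series term, 165 with 4 name prefixes and 258 with array quality weights, and ran from 42 (without Nestin;BrafKE/+ replicate 1) to 369 without 1 library. The cause of these shifts was not tested, but some omissions remove a whole series from the comparison. Leaving out either library of series C removes that series. Leaving out Nestin;BrafKE/+ replicate 1, the only mutant of series A, removes series A. Leaving out Braf+/+ replicate 4, the only control of series B, removes series B. The 4 ratios kept their side of the threshold with other pseudocounts, which was nearly fixed in advance. The smallest possible permutation p within series is 0.0417, so 1 ratio alone could not pass after adjustment over the 4. Without 1 library their differences ran from 0.021 to 0.22 (Psmb8 to Psmb5), -0.13 to 0.21 (Psmb9 to Psmb6), -0.12 to -0.0070 (Psmb10 to Psmb7) and -0.14 to 0.043 (H2-D1 to H2-K1). The spread between 4 and 5 libraries, and not a known depth, limits these values.

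Replicate numbers are shared by the groups in the labels. Deviations from the group means correlated between same-numbered libraries with r of -0.39, -0.078, 0.069 and 0.41 for replicates 1 to 4, so the numbers do not pair the animals. With the replicate number as a block in place of the series, 1405 genes passed the threshold, among them 2 class I genes (H2-D1, log2 fold change 0.45, adjusted p = 0.0172, and H2-K1, 0.44, adjusted p = 0.0382) and 6 of the pathway lists. Braf+/+ replicate 5 is the only library with its number, so the block takes it out of the genotype comparison. The other blocks join animals that the numbers do not pair.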
